A study of Mus musculus with 18 samples.

Results

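The genes described here are 10 regulators of the primitive streak and of the mesoderm that leaves it: Mixl1, Gsc, Mesp1, Tbx6, Msgn1, Kdr, Hand2, Nkx2-5, Myod1 and Myf5. They were chosen by name, and each was followed over its gene body and 100 kb beyond either annotated end. All 10 were found among 21774 protein-coding genes, and their regions held 215 of the 166066 peaks listed. Open chromatin was mapped by ATAC-seq, which uses a transposase to cut and tag accessible DNA, in mouse ES cells of the line named dTKO grown with serum and LIF. All cells carried the genotype Suv39h1 fl/fl, Suv39h2 -/-, Setdb1 fl/fl, and all libraries bear the treatment label auxin with dTAG13, small molecules that trigger the degradation of suitably tagged proteins, given at 100 µg/ml and 0.5 µM. There were 18 libraries, 3 biological repeats at each of 0, 3, 6, 12, 24 and 48 h, with 0 h as the baseline. The study asked where chromatin opens once histone H3 lysine 9 methyltransferases are removed, but the peaks are given as 1 list merged over all libraries, with no count or height. No gain or loss over time, depth or error between repeats could therefore be computed, and no statistical test was made: every value below is a position or a count in that merged list, and a peak may come from any of the times.

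The primitive streak is the site where epiblast cells leave the epithelium and become mesoderm or definitive endoderm, under Nodal, Wnt, Bmp and Fgf signals. Transcription factors of the streak switch on first, and the cells then form paraxial mesoderm, the source of somites and skeletal muscle, or the mesoderm of heart and blood vessels. In embryonic stem cells such genes are known to be mostly silent, and many of them are held by Polycomb proteins at CpG-rich promoters.

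Where a peak lay over the RefSeq start of these genes, it reached further downstream, over the gene, than upstream, though by little in Kdr. Sequences of 300 bp around the RefSeq start (GRCm38.p6, 250 bases before it and 50 from it onwards) matched 8 of the 10 genes, all but Mixl1 and Myod1. The 6 shown were picked because they span the range seen, from a window wholly inside a peak (Kdr) through peaks that cover the start and part of the window upstream of it (Mesp1, Gsc, Hand2) to windows that no peak touched (Tbx6, Myf5). They read 5′ to 3′ along the gene, and capitals mark the bases that lie inside a peak.
Kdr, chr5:75978406-75978705, minus strand: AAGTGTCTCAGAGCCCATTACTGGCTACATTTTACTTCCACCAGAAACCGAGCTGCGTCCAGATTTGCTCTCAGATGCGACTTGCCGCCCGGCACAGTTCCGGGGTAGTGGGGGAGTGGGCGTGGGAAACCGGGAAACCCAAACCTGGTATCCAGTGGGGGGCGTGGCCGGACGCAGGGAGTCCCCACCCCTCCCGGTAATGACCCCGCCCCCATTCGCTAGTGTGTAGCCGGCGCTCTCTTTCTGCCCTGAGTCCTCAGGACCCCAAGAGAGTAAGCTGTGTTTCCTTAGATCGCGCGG
Mesp1, chr7:79793541-79793840, minus strand: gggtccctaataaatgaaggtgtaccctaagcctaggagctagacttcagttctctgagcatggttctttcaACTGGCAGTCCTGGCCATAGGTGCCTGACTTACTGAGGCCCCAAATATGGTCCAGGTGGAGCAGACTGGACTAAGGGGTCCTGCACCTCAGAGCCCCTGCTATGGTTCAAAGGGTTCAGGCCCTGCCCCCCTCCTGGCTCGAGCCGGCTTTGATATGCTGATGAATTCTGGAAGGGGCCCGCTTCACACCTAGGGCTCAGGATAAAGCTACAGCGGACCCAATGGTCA
Gsc, chr12:104473187-104473486, minus strand: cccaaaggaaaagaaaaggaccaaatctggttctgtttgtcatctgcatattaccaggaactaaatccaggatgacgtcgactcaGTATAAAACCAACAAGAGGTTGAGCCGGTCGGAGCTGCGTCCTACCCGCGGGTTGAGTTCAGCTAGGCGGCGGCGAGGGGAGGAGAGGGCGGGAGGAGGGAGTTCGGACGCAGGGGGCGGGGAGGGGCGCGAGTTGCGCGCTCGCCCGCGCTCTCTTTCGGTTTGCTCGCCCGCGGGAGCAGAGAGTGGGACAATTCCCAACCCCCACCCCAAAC
Hand2, chr8:57320733-57321032, plus strand: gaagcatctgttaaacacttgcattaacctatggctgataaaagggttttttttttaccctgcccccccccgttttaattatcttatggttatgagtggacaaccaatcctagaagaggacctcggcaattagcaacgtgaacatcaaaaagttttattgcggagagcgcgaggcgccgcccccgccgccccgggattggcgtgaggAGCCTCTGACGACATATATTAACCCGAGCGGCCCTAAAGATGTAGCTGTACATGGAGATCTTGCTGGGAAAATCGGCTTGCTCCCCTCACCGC
Tbx6, chr7:126781233-126781532, plus strand: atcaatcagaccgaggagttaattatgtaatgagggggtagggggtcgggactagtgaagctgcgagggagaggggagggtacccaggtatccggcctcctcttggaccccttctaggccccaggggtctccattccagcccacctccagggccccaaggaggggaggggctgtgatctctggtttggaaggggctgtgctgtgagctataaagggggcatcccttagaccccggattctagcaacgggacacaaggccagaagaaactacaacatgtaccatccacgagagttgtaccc
Myf5, chr10:107486085-107486384, minus strand: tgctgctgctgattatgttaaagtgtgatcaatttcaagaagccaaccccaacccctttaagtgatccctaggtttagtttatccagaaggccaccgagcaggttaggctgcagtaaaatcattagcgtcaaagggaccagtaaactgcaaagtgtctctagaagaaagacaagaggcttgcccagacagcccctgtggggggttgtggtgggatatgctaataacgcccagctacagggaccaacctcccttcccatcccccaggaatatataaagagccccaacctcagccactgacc
In the Kdr window all 300 bases were capitals. This window lies within the annotated gene, as the Kdr RefSeq start is 617 bp inside the annotated end. In Mesp1, Gsc and Hand2 the peak began 178, 165 and 43 bp before the start and ran on into the gene.

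Across the set, 9 of the 10 genes had a peak within 500 bp of an annotated end, against 71.4% of all protein-coding genes and 55.9% of those no longer than 10 kb, a class that holds 9 of the 10. Myf5 was the exception. With a peak's midpoint required inside that window the count was 5 of 10, against 60.2% of all protein-coding genes and 46.9% of the short ones. All 10 had a peak over the gene body, against 81.6% of all protein-coding genes and 59.1% of the short ones. A peak lay at both ends in 6 genes (Mesp1, Gsc, Tbx6, Msgn1, Nkx2-5 and Myod1), against 18.2% of all protein-coding genes, although in genes as short as Mesp1, Gsc and Msgn1 a single peak can reach both ends. That background is over longer genes, with a median length of 17219 bp against 3763.5 bp in the set. The share with both ends was not counted among the short genes. The peak nearest to the limit of 500 bp on the inside was a second peak of Hand2, 481 bp from the gene, and the nearest peak of Myf5 lay 959 bp from its annotated end. At the outer limit of the regions, the last peak inside was 99.6 kb from Mixl1 and the first outside was 101297 bp from Gsc.

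The members differed in how much of the gene the peaks covered, a share that depends on gene length as well as on peak width. Peaks covered at least 50% of the gene in Gsc, Msgn1, Mesp1, Myod1 and Hand2, which is 5 of 10, against 2.88% of all protein-coding genes and 7.99% of those no longer than 10 kb. These 5 were also the shortest members, at 567 to 3535 bp, and the others spanned 3992 bp or more. The median over the set was 51.3% of the gene, against 7.47% over all protein-coding genes and 9.64% over the short ones. At the low end stood Kdr and Tbx6, with 4.91% and 5.12%. The Msgn1 record spans 567 bp and opens with ATG, as do 8.13% of the listed starts of protein-coding genes, so it appears to hold the coding sequence alone. Without Msgn1 the count was 4 of 9 and the median 41.6%.

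**Figure D1:**
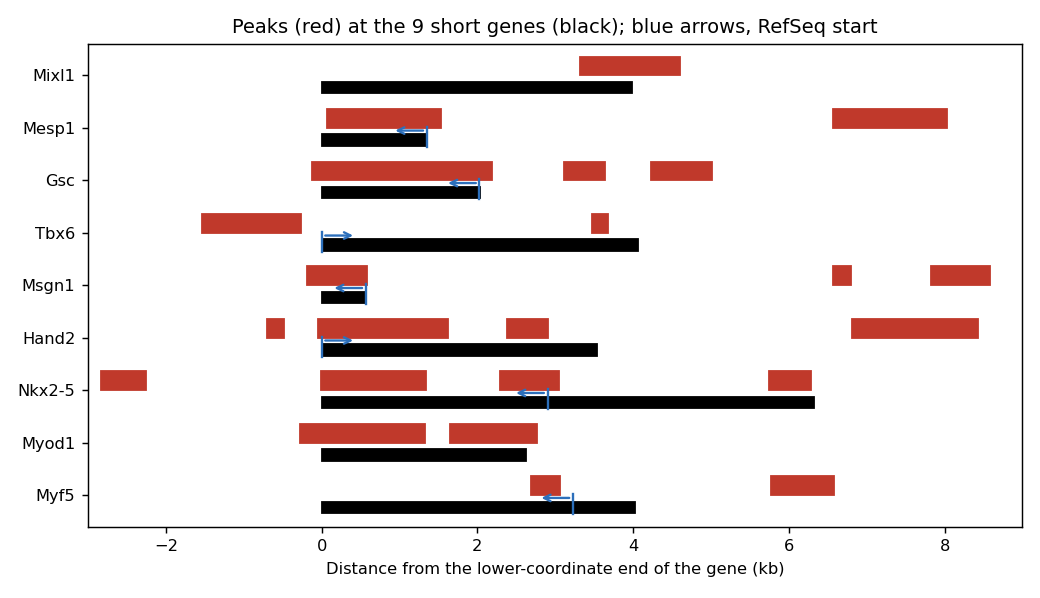
Peaks (red) and gene bodies (black) at the 9 genes no longer than 10 kb, by distance in kb from the lower-coordinate end of each gene. Blue marks show the RefSeq start and its direction where the promoter table has one. Gsc and Msgn1 lie wholly under a peak, the peak of Tbx6 stops 268 bp before its start, and that of Myf5 lies 166 bp downstream of its RefSeq start.

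Mixl1 and Gsc encode homeodomain proteins of the streak, and both are known as targets of Nodal signalling. Mixl1 (chromosome 1, 180693043 to 180697034, GRCm38) had 1 peak over the gene, 1283 bp wide at 180696360 to 180697642, across its higher-coordinate end. That peak covered 16.9% of the gene and stood alone: the nearest others lay 11.7 kb to the lower side, 213 bp wide, and 22.1 kb to the higher side, 1612 bp wide. Gsc (chromosome 12, 104471209 to 104473236) lay wholly under a peak of 2316 bp at 104471086 to 104473401, which also reached an end of the noncoding gene Gm10000. Of all protein-coding genes, 96.2% had a narrower peak at an end or none. Peaks of 523 and 775 bp followed 1.09 and 2.21 kb beyond the Gsc start.

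Mesp1 encodes a bHLH factor of the earliest mesoderm, including the precursors of the heart. Its gene (chromosome 7, 79792241 to 79793590) was covered over 94.5% of its length by a peak of 1454 bp at 79792315 to 79793768. Upstream of the start a peak of 1462 bp lay 5.22 kb away between genes, and a peak of 1070 bp, 17.0 kb away, lay at an end of the paralogue Mesp2, which acts in somite formation. On the other side the nearest peak, 743 bp wide and 5.56 kb away, lay at an end of Wdr93.

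Tbx6 and Msgn1, a T-box and a bHLH factor, specify presomitic mesoderm, and Msgn1 is known as a target of Wnt signals and of Tbx6. The peaks of these 2 genes lay differently. Tbx6 (chromosome 7, 126781483 to 126785548) had no peak over its start. A peak of 1268 bp at 126779948 to 126781215 ended 268 bp upstream and also lay at an end of the neighbour Ypel3, so it cannot be given to either gene, and the body held only a peak of 208 bp, the narrowest of the 17 peaks at members. Msgn1 (chromosome 12, 11208382 to 11208948) was wholly under a peak of 770 bp at 11208195 to 11208964. Around Msgn1 further peaks lay close by, at 3.59, 9.11, 10.5 and 11.9 kb to the lower side. The first of these lay at an end of the neighbour 9530020I12Rik and the others inside another gene. To the higher side peaks lay between genes at 6.00, 7.26 and 12.7 kb, the last of them 1781 bp wide.

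Kdr encodes VEGF receptor 2, which marks the mesoderm that gives rise to blood vessels and blood. It is the longest member, at 46.2 kb (chromosome 5, 75932827 to 75979072), and had 2 peaks over its body, 1 near either end. The peak over the start was 1566 bp wide at 75977619 to 75979184 and also lay at an end of the noncoding gene Gm32727. The RefSeq start, at 75978455, lies 617 bp inside the annotated end, and the same peak covers both. The other was 818 bp wide at 75933510 to 75934327, inside the gene and more than 500 bp from its end. Between them 43.3 kb of the gene held no peak, which was the longest such stretch in the region.

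Hand2 and Nkx2-5 encode a bHLH and a homeodomain factor of the developing heart. Hand2 (chromosome 8, 57320983 to 57324517) had a peak of 1672 bp at 57320940 to 57322611 over its start, a peak of 525 bp further inside, and a peak of 222 bp at 57320281 to 57320502 on the upstream side. The first and the last of these also lay at an end of Hand2os1, a noncoding gene transcribed away from Hand2, and the counts cannot be split between the 2 genes. Downstream, the nearest peak was 1623 bp wide and lay between genes, 3.27 kb from Hand2. Among those further off, peaks of 503 and 807 bp lay at ends of the noncoding gene Hdnr, 7.75 and 28.9 kb from Hand2. Nkx2-5 (chromosome 17, 26838664 to 26844988) had 3 peaks over its body, the most of any member, of 1352, 757 and 537 bp. The outer ones lay at the annotated ends. The middle one, at 26840960 to 26841716, covered the RefSeq start at 26841565. That start lies inside the annotated gene. The nearer annotated end, 2901 bp away, is the downstream one, as the gene is on the minus strand.

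Myod1 and Myf5 encode bHLH factors that commit cells to skeletal muscle, and the 2 genes differed in how far they were open. Myod1 (chromosome 7, 46376474 to 46379092) had peaks of 1608 bp at 46376197 to 46377804 and 1113 bp at 46378128 to 46379240, which together covered 87.7% of the gene and reached both ends. Beyond them, the nearest peaks lay 14.0 kb away on the higher side, 366 bp wide, and 27.0 kb away on the lower side, 920 bp wide. Myf5 (chromosome 10, 107482908 to 107486927) had a peak of 372 bp at 107485597 to 107485968, which covered 9.25% of the gene. Its RefSeq start, at 107486134, lies 793 bp inside the annotated end, and the peak lay 166 bp downstream of that start. Thus all 8 members with a listed start had a peak within 500 bp of it, against 70.1% of the starts of protein-coding genes. Tbx6 counts here only through the peak 268 bp upstream, which also lay at an end of Ypel3. The absence at Myf5 concerns its outermost annotated ends. Upstream of Myf5, peaks of 811 and 1153 bp lay 1.75 and 6.44 kb away, the second at an end of Myf6, a further muscle factor gene.

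Peaks over the starts were lopsided. A peak lay over the start itself in 6 of 8 members, all but Tbx6 and Myf5, against 66.1% of the starts of protein-coding genes, and each of the 6 reached further into the gene than upstream of it, against 59.8% of the starts inside a peak. Upstream they reached 16 bp in Msgn1, 43 bp in Hand2, 151 bp in Nkx2-5, 165 bp in Gsc, 178 bp in Mesp1 and 729 bp in Kdr, a median of 158 bp against 573 bp over all such starts. Into the gene they reached 605 bp in Nkx2-5, 753 bp in Msgn1, 836 bp in Kdr, 1275 bp in Mesp1, 1628 bp in Hand2 and 2150 bp in Gsc, a median of 1056 bp against 694 bp. Kdr stood apart from the other 5, whose upstream reach was below the lower quartile of all starts, 391 bp. However, the listed Kdr start lies 617 bp inside the annotated upstream end. Most of its upstream reach, and its whole promoter window, thus lie within the annotated gene. The listed start of Msgn1 is an ATG and may not be where transcription begins, and without it the medians were 165 and 1275 bp over 5 genes. Of the 8 promoter windows, 1 lay wholly inside a peak, that of Kdr, against 58.9% of the windows of protein-coding genes, and 6 of 8 were overlapped at all, against 67.9%.

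**Figure D2:**
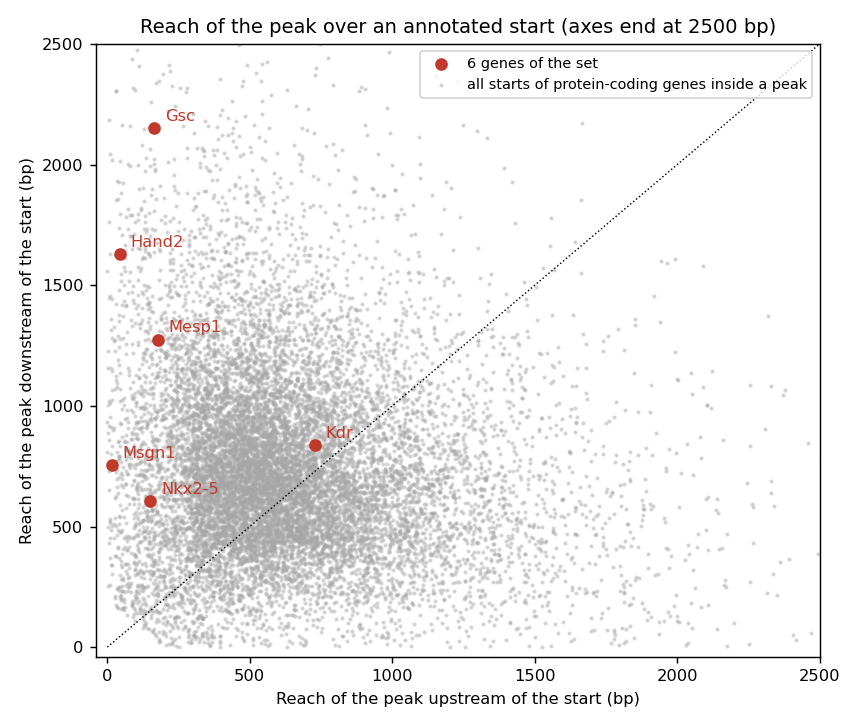
Reach in bp of the peak over a start, upstream (x) and downstream into the gene (y), for the 6 genes of the set with a start inside a peak (red) and for the 14062 starts of protein-coding genes inside a peak (grey, 64 of them beyond the axes). All 6 red points lie above the dotted line of equal reach, and 5 of them, all but Kdr, lie left of 391 bp upstream. The Kdr start lies 617 bp inside the annotated end of its gene.

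Base composition of the promoter windows varied within the set. Windows were called CpG-rich where at least 50% of bases were G or C and the CpG count was at least 0.6 of that predicted from the G and C content. Gsc, Hand2 and Kdr met this, with ratios of 0.934, 0.897 and 0.689. Nkx2-5, Tbx6, Msgn1, Mesp1 and Myf5 did not, with ratios of 0.466, 0.286, 0.197, 0.174 and 0.163. A peak overlapped all 3 CpG-rich windows of the set and 3 of the 5 others, against 99.3% and 42.0% of such windows over all protein-coding genes. The windows without a peak, those of Tbx6 and Myf5, are thus both CpG-poor, and so are those of Mesp1, Msgn1 and Nkx2-5, which a peak overlapped. The reach of peaks over starts differs by class too. Over all protein-coding genes the median upstream reach was 634 bp at CpG-rich starts and 421 bp at the others. Peaks reached further downstream at 57.4% and 64.7% of them. Gsc, Hand2, Mesp1, Msgn1 and Nkx2-5 were each below the lower quartile of upstream reach in their class, 471 or 265 bp.

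Letters of 4 binding motifs were searched on both strands in the 8 windows, as a description of the sequence. CTTTGA, the core of sites for the Wnt effectors Tcf and Lef, was found in Mesp1, Msgn1, Nkx2-5 and Myf5, against 16.0% of all 32851 windows. Mesp1 held it 72 and 31 bp before the start, inside the peak, and Msgn1 202 and 143 bp before it, outside the peak. TCACACCT, a half-site of T-box factors, was found in Mesp1, 5 bp after the start, and is held by 1.28% of all windows. TATAAA was found in Gsc, Tbx6 and Myf5, against 13.6% of all windows. It lay 164 bp before the start in Gsc, 43 bp before it in Tbx6 and 20 bp after it in Myf5. CANNTG, the E-box that bHLH factors bind, was found in 6 of 8, against 72.3%. No matches of different motifs overlapped in these windows.

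Around the genes, peaks were about as frequent as around other protein-coding genes. The regions held 9 peaks at Myf5, 12 at Kdr, 16 at Myod1, 20 at Hand2, 22 at Mesp1, 23 at Msgn1, 24 at Nkx2-5, 25 at Mixl1, 27 at Gsc and 37 at Tbx6. The median was 22.5 in the set, against 25 over all protein-coding genes and 20 over those no longer than 10 kb. Of the 10 regions, 7 held fewer peaks than the median gene, 1 as many and 2 more. Fewer peaks than at Myf5 were found at 13.2% of protein-coding genes, and fewer than at Tbx6 at 78.9%. In the first 5 kb outside the gene, members averaged 0.900 peaks per 10 kb, against 1.17 over all protein-coding genes. From 5 to 25 kb they averaged 1.15 against 1.10, from 25 to 50 kb 1.02 against 1.06, and from 50 to 100 kb 0.940 against 1.02.

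**Figure D3:**
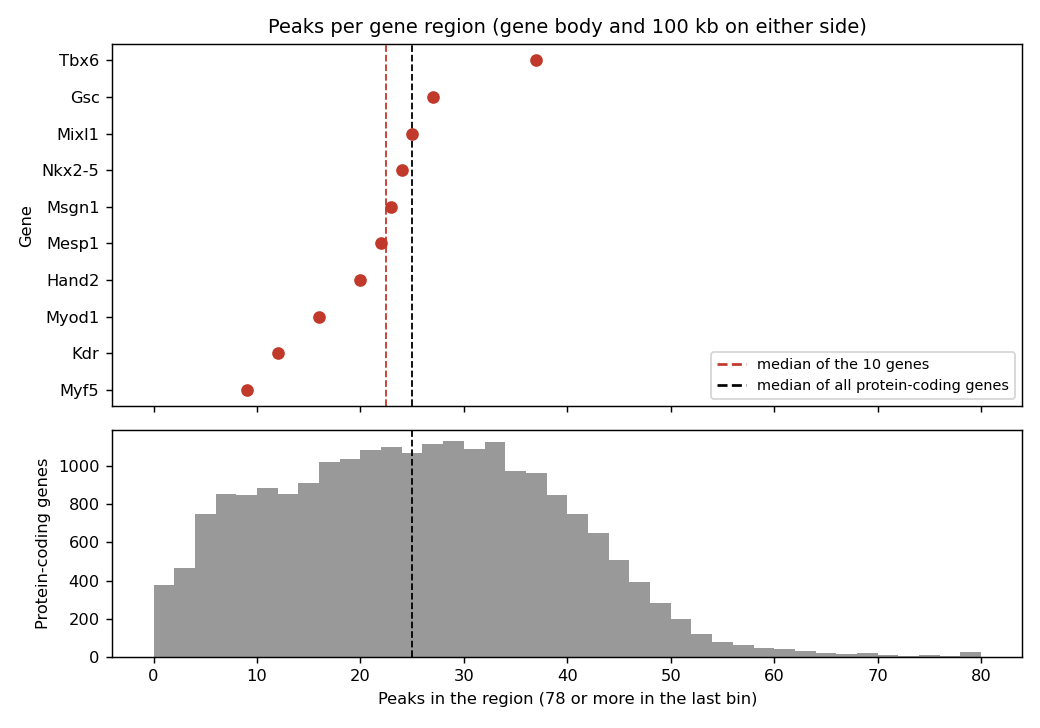
Number of peaks in each region, gene body and 100 kb on either side. Upper panel, each of the 10 genes (red points), and lower panel, all protein-coding genes (grey). Dashed lines mark the medians of 22.5 in the set and 25 over all protein-coding genes.

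What the surrounding peaks lay at also varied. Of the 215 peaks, 17 lay at a member itself, 49 at an end of another gene, 72 inside another gene and 77 between genes. Peaks at an end of another gene made up 22.8% of the total, against 18.8% over the regions of all protein-coding genes. They numbered 12 of 37 at Tbx6 and 10 of 24 at Nkx2-5, and 0 of 12 at Kdr, where 9 lay between genes. Median peak width was 1113 bp at members and 1120 bp at ends of other genes, against 574 bp between genes and 578 bp over the whole list. Hand2 had the longest stretch without a peak, 84.1 kb of its lower-coordinate side, which is upstream of the gene, and the next peak beyond lay 137240 bp from the gene. Myf5 and Nkx2-5 also had long empty stretches, of 47.0 and 41.4 kb, while the longest at Tbx6 was 14.5 kb.

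**Figure D4:**
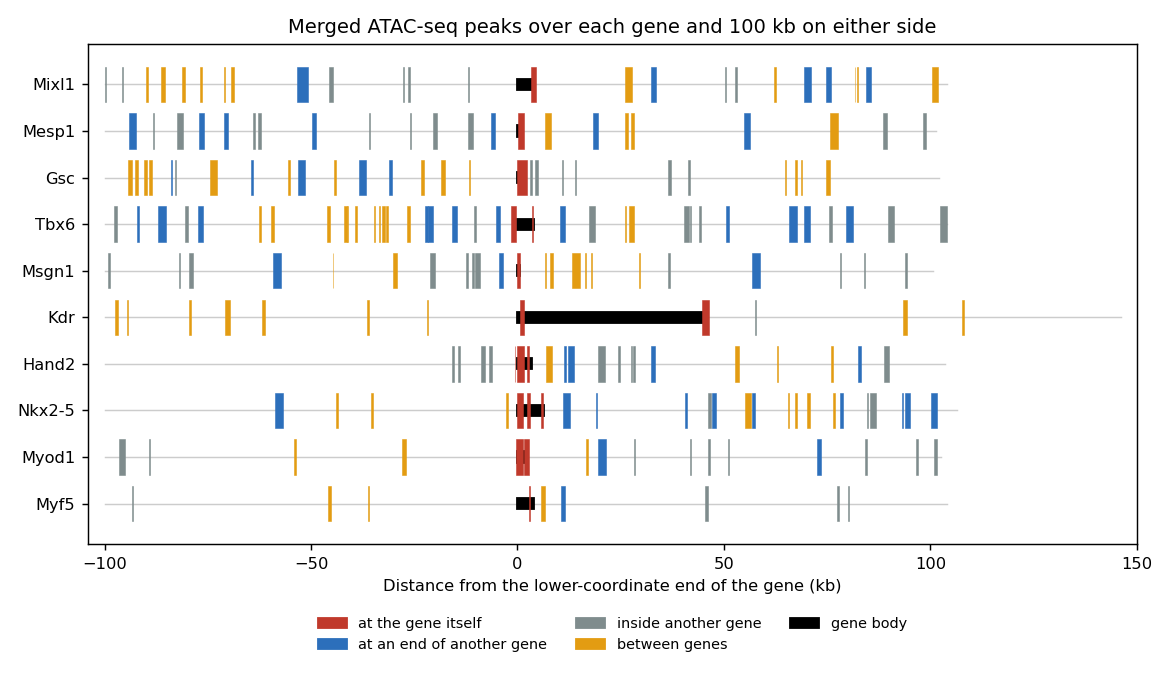
Merged peaks over each of the 10 genes and 100 kb on either side, to scale, by distance in kb from the lower-coordinate end of the gene. Colours show whether a peak lies at the gene itself (red), at an end of another gene (blue), inside another gene (grey) or between genes (orange), and black bars are gene bodies. The empty 84.1 kb to the left of Hand2 and the 43.3 kb inside Kdr stand out, as does the dense row of Tbx6 with 37 peaks.

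Genes that act before, beside and after the 10 members were listed by role, and a peak at an annotated end was found in 77 of 97 (79.4%, against 71.4% of all protein-coding genes). The ligands that induce the streak had 1 in 8 of 8 cases, with peaks of 3275 bp at Nodal, 3597 bp at Wnt3 and 1094 bp at Wnt3a. Their receptors and transducers had 1 in 17 of 17, among them the activin receptor genes Acvr1b, Acvr2a and Acvr2b with 1425, 1799 and 2329 bp. The secreted antagonists had 1 in 3 of 6, with peaks at Lefty1, Dkk1 and Nog, while Lefty2, Cer1 and Chrd had none, their closest ones being 0.814, 0.837 and 0.719 kb off.

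Transcription factors that work with the members mostly had open ends too. Streak factors had a peak in 9 of 9 cases, including Eomes, Evx1 and Lhx1, and muscle regulators in 6 of 6, including Myf6, Myog and Pax7. Genes of paraxial mesoderm and somites had 1 in 11 of 12, with Dll1, Dll3 and Lfng of the Notch pathway among them, and Meox1, a somite homeobox gene, had its nearest peak 2.22 kb from an end. Cardiac factors had 1 in 7 of 9, including Gata6, Hand1 and Isl1. Gata4 and Mef2c were the exceptions, with nearest peaks at 1.93 and 4.48 kb and 14 and 6 peaks inside the gene. Genes of vessels and blood islands had 1 in 8 of 10, including Tal1, Lmo2 and Etv2, with Tie1 and Runx1 as exceptions at 1.42 and 2.11 kb.

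Structural genes of the differentiated tissues and the antagonists had the lowest shares of the 10 role lists. Among cardiac structural genes 3 of 10 had an open end, Nppa, Nppb and Myl7, whereas the closest peaks to the myosin genes Myh6 and Myh7 and the troponin gene Tnnt2 were 1936, 2402 and 1132 bp from an end. Skeletal muscle structural genes had 1 in 5 of 10, including Acta1, Ckm and Tnnt3, while the nearest lay 5.15, 2.56 and 1.26 kb from Myh1, Myh2 and Myh3. For comparison, neural transcription factors had 1 in 10 of 10 cases and endoderm genes in 5 of 10, with Foxa1, Hnf4a and Afp among those without. Neural factors also had much of the gene covered, a median of 47.5% beside 51.3% in the 10 members. Markers of the labelled cell type were open, with a peak in 10 of 10 pluripotency genes such as Pou5f1, Nanog and Sox2. Of markers of other cells, 5 of 8 fibroblast genes (not Col3a1, Postn and Lum) and 4 of 8 blood genes had 1, with Ptprc and Cd8a among those without.

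**Figure D5:**
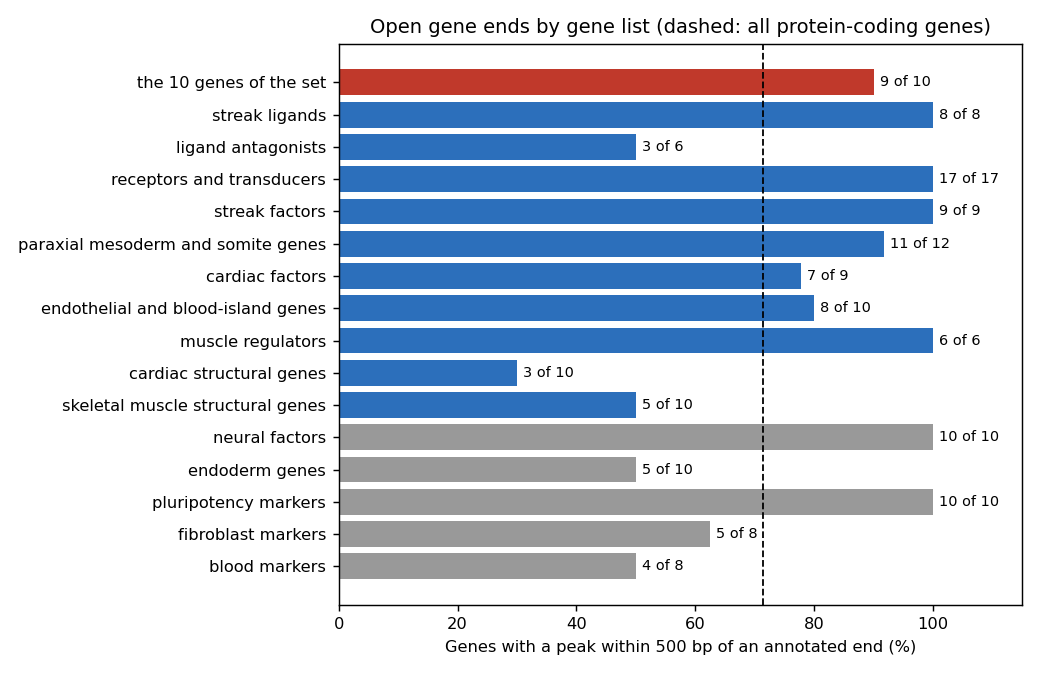
Share in % of genes with a peak within 500 bp of an annotated end, for the 10 genes of the set (red), 10 lists of related genes by role (blue) and 5 comparison lists (grey), with counts beside the bars. The dashed line is the 71.4% of all protein-coding genes, and the structural genes of heart and skeletal muscle, at 3 of 10 and 5 of 10, stand below it.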

How the data were processed

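The authors deposited 1 list of peak positions in which peaks of 18 ATAC-seq libraries were merged. Tools recorded in the submitters' processing notes are MACS2 2.2.7.1, Bowtie2 2.4.2 and Trimmomatic 0.36, and the builds mm10 and GRCm38. The peak threshold, the merging rule and the handling of duplicates, blacklisted regions and the transposase offset are not given in the sources used here, and a looser threshold or merging would change which peaks exist and how wide they are. Depth per library is unknown. Starts were counted from 1. Gene positions came from a RefSeq table of GRCm38.p6 without 348 genes whose coordinates belong to scaffolds or patches, and starts, strands and sequences from RefSeq promoter windows of the same build. A peak counted where it overlapped a gene, window or region by at least 1 bp, except that in the distance bands outside the gene peaks were placed by midpoint. Background shares are over all protein-coding genes or windows. All members are named, with neighbours at whose ends a described peak lies and up to 3 genes with and 3 without an end peak of each role list in list order. Members and lists were chosen with earlier results of these data known, and the measures of covered length and of reach around a start were added after seeing the peaks. The overlap code was tested on simulated peaks. Computation used Python 3.11.15, numpy 2.4.6 and pandas 2.3.3.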

Additional observations from a re-analysis of the deposited data

How the results depend on the processing

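No paired analysis was possible because the merged list holds no value per library. Of 26 recounts of set totals and medians under other settings, 22 stayed within 1.5 times the value reported. Counts near their total, such as 9 of 10 members and 77 of 97 role-list genes, could not rise by that factor. With a peak's midpoint required inside the window of 500 bp, members with a peak at an end numbered 5 in place of 9, against 60.2% of protein-coding genes. The median per region was 11.5 with flanks of 50 kb and 12 with peaks wider than 578 bp alone, in place of 22.5, as shorter regions and fewer peaks must give. Counting ends of protein-coding genes alone, 32 in place of 49 region peaks lay at an end of another gene. With windows of 250 and 2000 bp, 8 and 10 members had a peak at an end, against 68.8% and 79.7% of protein-coding genes. The same windows gave 73 and 90 of the 97 genes in the role lists, in place of 77. Wide peaks alone left 4 members at least 50% covered in place of 5, and a limit of 25% gave 6, settings chosen after seeing the data, as was the count of 8 at transcript starts. For the regions of single members, wide peaks alone gave 5 to 24 peaks and moved 9 of 10 counts by more than 1.5 times, all but Mesp1. Merging peaks 150 bp or less apart, or placing peaks by midpoint, moved 0 of 10 that far.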

Other observations

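2 members lie beside a paralogue with a related role, and the neighbours can be set side by side. Myf5 had 9.25% of its gene covered by peaks and none at an end, whereas Myf6 had 61.5% covered and a peak of 1153 bp at an end. Their regions share most of their DNA and held 9 peaks at Myf5 and 8 at Myf6. Mesp1 had 94.5% covered, against 34.8% at Mesp2, and the regions held 22 peaks at Mesp1 and 20 at Mesp2. These shares depend on gene length too: Mesp2 is longer than Mesp1, and Myf5 is longer than Myf6. The peak at an end was 1454 bp wide at Mesp1 and 1070 bp wide at Mesp2. The paralogues were picked for their position beside a member, after their values were seen.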
